A study of Mus musculus with 6 samples.

Results

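First-intron peaks away from promoters are stretches of chromatin marked by acetylation of histone H3 at lysine 27 (H3K27ac) that lie inside the first intron of a protein-coding gene and touch no promoter window of a protein-coding or lincRNA transcript. They were selected on position and width alone. A listed peak qualified when it lay on an autosome, was narrower than 10000 bp, overlapped no window of 1 kb either side of the transcription start site (TSS) of a protein-coding or lincRNA transcript, and had its midpoint in the first intron of the longest protein-coding transcript of a gene. Of the 22973 peaks listed for control cells, 1415 qualified, which was 6.16% (95% Wilson interval 5.86 to 6.48). They made up 6.28% (5.97 to 6.61) of the 22518 autosomal peaks. Every interval given here covers counting error only, because the peaks come from 1 list without replicates, heights or read depth, and no test across peaks was run.

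The series profiled H3K27ac by ChIP-seq in mouse embryonic stem cells (mESCs), E14Tg2A cells with Rosa26-Cre and Oct4-IRES-Puro per the growth protocol, kept in N2B27 medium with LIF and the MEK and GSK3 inhibitors PD0325901 and CT-99021. There were 6 samples in 3 conditions with 2 replicates each: vehicle control (DMSO), the CDK9 inhibitor NVP-2 at 100 nM, and the DNA-binding transcription inhibitor actinomycin D (ActD), labelled 800 nM and stated in the protocol as a mass concentration, all for 120 min and all with human HEK293 cells as spike-in. Only the control peak list, made from both control replicates together, is described here, and no value of the inhibitor-treated samples was used. In that list the promoters of Pou5f1, Sox2 and Nanog, which define mESCs, each overlapped a peak, whereas those of Alb, Myod1, Neurod1 and Gata1, which mark liver, muscle, neuron and blood, did not.

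Acetylation of H3K27 is deposited mainly by the acetyltransferases CBP and p300 and marks active promoters and active distal enhancers. Enhancers often sit inside introns, and the first intron, which is usually the longest and follows the promoter directly, is a common place for them. In mESCs, active enhancers are known to be bound by pluripotency factors such as OCT4, SOX2, ESRRB and KLF4 and by the LIF effector STAT3, each of which recognises a short DNA motif.

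The stretches below show such motifs in genes of the LIF, FGF, Wnt and Nodal or BMP signalling pathways and in a pluripotency gene. Each is 300 bp of the plus strand of mm10 (GRCm38, RefSeq sequence), lies wholly within a first-intron peak, and is written in lower case with motif matches in capitals. The letters searched, on both strands, were TTGTNATGC for the POU-SOX composite, ATGCAAAT for the octamer, TCAAGGTCA for Esrrb, CCACACCC for KLF and TTCCNGGAA for STAT. The last ATGC of the composite can be the start of an octamer, and 2 of the 1415 peaks held both motifs in the 1000 bp about their midpoint.
Esrrb, chr12:86435538-86435837: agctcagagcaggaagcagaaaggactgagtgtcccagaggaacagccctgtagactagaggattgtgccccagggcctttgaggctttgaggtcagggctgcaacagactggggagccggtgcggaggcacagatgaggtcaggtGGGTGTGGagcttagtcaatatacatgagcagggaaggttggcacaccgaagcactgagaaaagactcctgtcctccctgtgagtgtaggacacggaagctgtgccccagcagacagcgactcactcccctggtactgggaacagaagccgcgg
Lifr, chr15:7115735-7116034: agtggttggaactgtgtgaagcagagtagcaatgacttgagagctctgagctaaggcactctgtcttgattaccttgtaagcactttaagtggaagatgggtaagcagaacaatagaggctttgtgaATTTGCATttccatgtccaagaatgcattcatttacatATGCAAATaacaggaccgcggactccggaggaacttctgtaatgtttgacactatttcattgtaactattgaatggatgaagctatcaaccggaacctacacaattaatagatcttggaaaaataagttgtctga
Sos1, chr17:80468759-80469058: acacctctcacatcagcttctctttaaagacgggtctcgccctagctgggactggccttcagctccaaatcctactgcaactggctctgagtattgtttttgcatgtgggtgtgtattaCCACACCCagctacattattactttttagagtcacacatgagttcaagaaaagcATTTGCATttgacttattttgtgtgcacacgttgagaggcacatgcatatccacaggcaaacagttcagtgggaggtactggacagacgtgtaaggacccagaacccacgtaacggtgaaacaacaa
Znrf3, chr11:5412199-5412498: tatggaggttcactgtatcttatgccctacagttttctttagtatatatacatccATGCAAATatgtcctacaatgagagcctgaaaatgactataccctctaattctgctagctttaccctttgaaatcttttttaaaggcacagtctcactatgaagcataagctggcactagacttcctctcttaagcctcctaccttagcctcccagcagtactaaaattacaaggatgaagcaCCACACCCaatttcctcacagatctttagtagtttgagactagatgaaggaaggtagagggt
Lrp5, chr19:3668978-3669277: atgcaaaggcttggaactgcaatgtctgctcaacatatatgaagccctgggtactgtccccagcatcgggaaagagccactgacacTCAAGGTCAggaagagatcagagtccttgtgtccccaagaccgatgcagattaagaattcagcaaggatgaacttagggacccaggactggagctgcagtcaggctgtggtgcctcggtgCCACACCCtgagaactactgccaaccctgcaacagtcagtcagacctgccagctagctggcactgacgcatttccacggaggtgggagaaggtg
Lrp6, chr6:134556560-134556859: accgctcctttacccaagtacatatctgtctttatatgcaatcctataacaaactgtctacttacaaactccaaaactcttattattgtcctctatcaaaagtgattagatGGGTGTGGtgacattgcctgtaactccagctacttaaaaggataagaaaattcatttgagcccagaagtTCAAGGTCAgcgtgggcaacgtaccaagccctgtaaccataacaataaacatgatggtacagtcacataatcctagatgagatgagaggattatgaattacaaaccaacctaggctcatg
Ski, chr4:155171643-155171942: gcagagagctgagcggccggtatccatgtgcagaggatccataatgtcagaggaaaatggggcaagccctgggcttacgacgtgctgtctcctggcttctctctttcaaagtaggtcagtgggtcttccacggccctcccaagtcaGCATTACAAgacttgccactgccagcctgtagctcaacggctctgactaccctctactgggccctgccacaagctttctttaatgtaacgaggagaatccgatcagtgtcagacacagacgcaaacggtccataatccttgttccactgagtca
Capitals mark a KLF match in Esrrb, which encodes an orphan nuclear receptor of the naive pluripotency network, and a pair of octamers in Lifr, the receptor for LIF. In Sos1, an exchange factor that activates Ras, a KLF match is followed by an octamer. Znrf3, a ubiquitin ligase that removes Wnt receptors, held an octamer and a KLF match, and the Wnt co-receptors Lrp5 and Lrp6 each held 1 Esrrb and 1 KLF match within 300 bp. The stretch of Ski, a corepressor of SMAD proteins, held a POU-SOX composite. All of these matches lay in unmasked sequence except the Esrrb match of Lrp6, which lay in a masked repeat. A match is a run of letters and was not tested for binding.

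The first-intron peaks had a median width of 1983 bp (95% interval 1921 to 2109), with quartiles at 1371 and 3912 bp. Peaks in later introns of the longest transcripts (n = 3468) had a median of 1937 bp (1907 to 1970), promoter peaks (n = 9520) of 1944 bp and intergenic peaks (n = 5414) of 1955 bp, all on autosomes and under the same width limit. The intervals of the first-intron and later-intron medians overlapped, and the first-intron median was the wider one on 11 of 19 autosomes. The widest peaks inside the limit lay in Lamc1 at 9982 bp, Fam169a at 9856 bp, Grik3 at 9851 bp, Sox13 at 9764 bp and Reep3 at 9669 bp. Just outside it lay peaks in Ildr1 at 10085 bp, B4galnt3 at 10113 bp, Lrch1 at 10120 bp, Wwc2 at 10173 bp and Cnnm2 at 10338 bp, among 95 first-intron peaks that the limit removed. Among the narrowest peaks were those in Myo15 at 60 bp, Spred2 at 139 bp, Evi5 at 150 bp and Clmp at 206 bp.

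Every one of the 1415 peaks is accounted for in the counts that follow, since no filter on signal was applied beyond the authors' own, by height and enrichment. Of them, 1323 (93.5%; 92.1 to 94.7) lay wholly inside the intron and the others ran into a flanking exon or beyond. The midpoint fell into the first intron of more than 1 gene for 23 peaks, and 32 midpoints (2.26%) also lay inside a further coding gene. Each autosome held between 35 and 124 of the peaks, and the share of an autosome's peaks that they made up was 6.18% ± 1.24 (SD over 19 autosomes), from 3.72% on chromosome 13 to 8.27% on chromosome 8. Chromosome 8 carries the gene model Gm20388, whose first intron of 4384418 bp held 41 of the peaks, 30 of which had its TSS as the nearest host TSS. Without this gene and the other one whose first intron exceeds 1 Mb, 1383 peaks in 1018 genes were left, with a share of 6.14% of autosomal peaks, a median distance of 20244 bp from the TSS and 46.0% sharing an intron.

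Most of the peaks lay more than 10 kb from the TSS of the longest transcript of their host. For 800 of the 1415 peaks (56.5%) another coding TSS of the host lay nearer to the midpoint. The median distance from the TSS of the host transcript to the midpoint was 20715 bp, with quartiles at 10360.5 and 45104.5 bp, and the nearest midpoint lay 1264 bp from its TSS. Within 10 kb of the TSS were 343 peaks (24.2%; 22.1 to 26.5), within 50 kb 1106 (78.2%), and within 100 kb 1294 (91.4%). Counted along the intron, the median position was 56.0% of its length. The first 10% of the intron held 42 peaks (2.97%), whereas each later step of 10% held between 121 and 173. A low count close to the promoter is in part built in, because peaks that touch a promoter window were not eligible and neighbouring peaks had been merged by the authors. Where several peaks shared an intron, taking only the one nearest to the TSS brought the median distance to 14710 bp.

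Introns were marked more densely when the promoter of their own gene was marked. A promoter was called marked when the window of 1 kb either side of the TSS of the longest transcript overlapped a listed peak. First introns of genes with a marked promoter held 1055 peaks over 107 Mb of eligible sequence, or 9.85 per Mb (exact Poisson interval 9.26 to 10.5), and those of genes with an unmarked promoter held 360 peaks over 114 Mb, or 3.15 per Mb (2.83 to 3.49). The ratio of 3.13 (2.77 to 3.52) exceeded 1 on 19 of 19 autosomes, where it ran from 1.77 to 6.16. In later introns the same ratio was 2.53 (2.35 to 2.73), from 7.79 and 3.07 per Mb. At each distance beyond 5 kb the ratio in first introns, between 2.95 and 3.86, was above that in later introns, between 1.73 and 2.73. The intervals lay apart only at 10 to 20 kb, 2.64 to 4.60 against 1.60 to 2.44, and overlapped in the other bins beyond 5 kb. Between 1 and 5 kb from the TSS both kinds of intron held few eligible peaks, and the ratios were 0.795 (0.525 to 1.21) and 0.747 (0.438 to 1.28). Low values there are in part built in. Peaks that touch a promoter window were not counted, but the sequence they cover beyond that window stayed in the eligible length.

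Compared with later introns, first introns held more peaks per Mb in genes with a marked promoter, and about as many in genes with an unmarked one. Over all genes the densities were 6.39 per Mb (6.06 to 6.73) in 221 Mb of first introns and 5.39 per Mb (5.21 to 5.58) in 643 Mb of later introns, a ratio of 1.18 (1.11 to 1.26) that was above 1 on 14 of 19 autosomes and ranged from 0.794 on chromosome 16 to 1.80 on chromosome 15. By distance the ratio over all genes was 1.27 (1.10 to 1.46) at 10 to 20 kb, but 0.873 (0.622 to 1.22) at 1 to 5 kb, 0.923 (0.787 to 1.08) at 50 to 100 kb and 0.883 (0.731 to 1.07) beyond 100 kb. Among genes with a marked promoter the ratio was 1.26 (1.18 to 1.36) and was above 1 on 15 autosomes. At 10 to 20 kb from the TSS it was 1.47 (1.25 to 1.72), from 13.7 and 9.30 peaks per Mb, and at 20 to 50 kb the densities were 12.5 and 8.96 per Mb. At 1 to 5 kb it was 0.905 (0.554 to 1.48) and beyond 100 kb 1.10, both with intervals that included 1. Among genes with an unmarked promoter the ratio was 1.02 (0.908 to 1.16), above 1 on 9 autosomes, and it lay between 0.764 and 0.983 in the 6 distance bins, each with an interval that included 1. When a gene was called marked by a peak at any of its coding TSSs, the ratios were 1.23 (1.15 to 1.32) for marked and 0.998 (0.869 to 1.15) for unmarked genes. Requiring the whole peak to lie inside the intron gave a ratio of 1.62 over all genes. That setting dropped peaks that run into an exon, which left 1324 first-intron peaks, and kept the eligible sequence unchanged. The share of peaks lost was therefore larger in later introns, and the rise is not a gain of first-intron peaks. The plot of density by distance shows intervals that do not overlap in marked genes from 10 to 50 kb, and overlapping ones at every distance in unmarked ones. Whether the ratio differs between marked and unmarked genes was not tested.

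**Figure D1:**
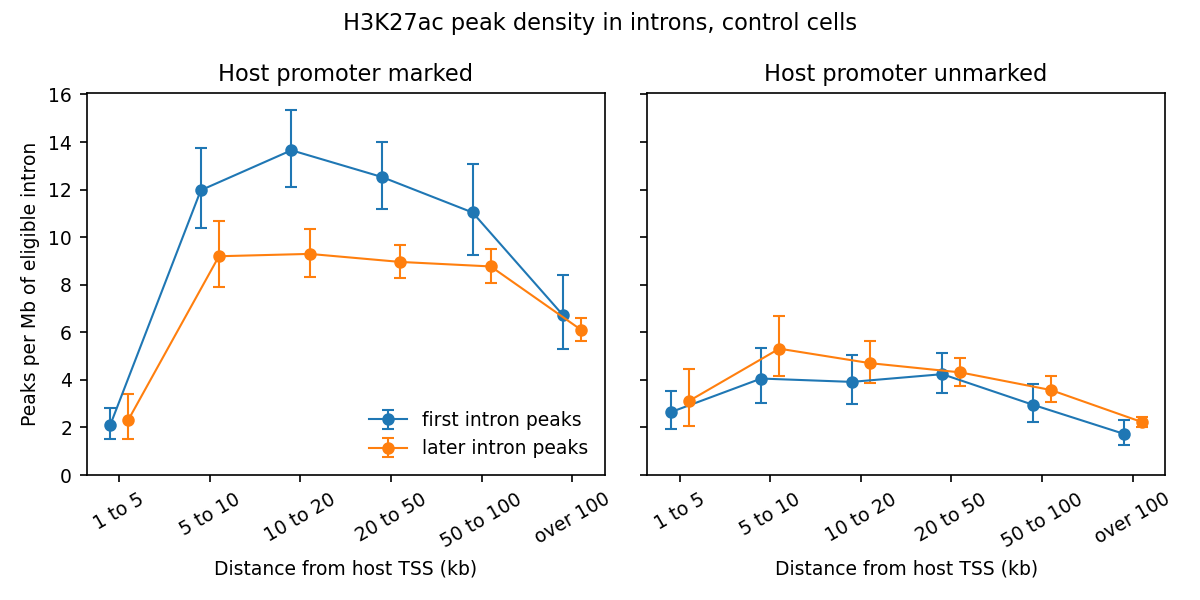
Peaks per Mb of eligible intron sequence (vertical axis) in bins of distance from the host TSS in kb (horizontal axis), for first-intron (blue) and later-intron (orange) peaks of genes with a marked (left) or unmarked (right) promoter; bars are 95% exact Poisson intervals. In marked genes the first-intron density reaches 13.7 per Mb at 10 to 20 kb against 9.30 in later introns, while in unmarked genes the highest values are 4.24 in first and 5.31 in later introns.

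The 1415 peaks lay in 1020 of the 14332 autosomal coding genes with eligible first-intron sequence, or 7.12% of them, which is the background for the counts of genes below. These hosts had long first introns, with a median of 34807.5 bp against 5504 bp over all 14332 genes. Their promoters were marked in 733 cases (71.9%; 69.0 to 74.5), against 51.1% (50.3 to 52.0) of the 13312 genes whose first intron held no such peak. The difference was also seen at matched intron length from 10 kb on. With introns of 10 to 20 kb, 80.9% (74.9 to 85.8) of 199 hosts and 56.1% (53.9 to 58.4) of 1890 other genes had a marked promoter, and with introns over 100 kb the shares were 52.7% (44.7 to 60.5) of 150 hosts and 18.9% (14.7 to 24.0) of 270 other genes. Below 5 kb of intron length there were only 2 hosts under 2 kb and 16 from 2 to 5 kb, too few to compare.

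Read the other way, the share of genes that held a first-intron peak was larger in each longer bin of intron length, and from 10 kb it was higher for marked than for unmarked genes beyond the counting intervals. Among genes with introns of 20 to 50 kb it was 26.3% (23.8 to 29.0) of 1124 marked and 12.7% (10.4 to 15.5) of 667 unmarked genes. Over 100 kb it was 60.8% (52.2 to 68.7) of 130 marked and 24.5% (19.9 to 29.7) of 290 unmarked genes. Of the 287 hosts without a peak at the TSS of the longest transcript, 55 (19.2%; 15.0 to 24.1) had one at another coding TSS, and counting any coding TSS the share of marked hosts was 77.3% (74.6 to 79.7) against 53.6% (52.8 to 54.5) of the other genes.

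**Figure D2:**
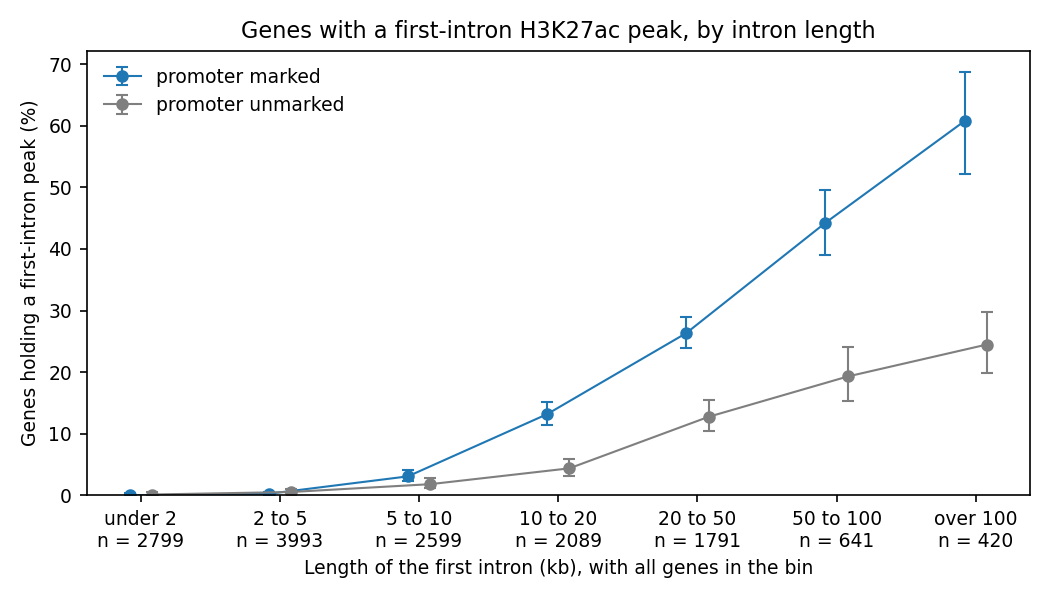
Share of autosomal coding genes that hold at least 1 first-intron peak, in percent (vertical axis), by the length of the first intron in kb (horizontal axis, with the number of genes in each bin), for genes with a marked (blue) and an unmarked (grey) promoter; bars are 95% Wilson intervals. The marked genes lie above the unmarked ones from 5 kb on, with overlapping intervals at 5 to 10 kb, and reach 60.8% against 24.5% over 100 kb.

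The peaks also lay close to other peaks. The gap to the nearest listed peak had a median of 8222 bp, against 13259 bp for later-intron, 15623.5 bp for promoter and 12313 bp for intergenic peaks, and 33.3% of first-intron but 22.8% of later-intron peaks had a neighbour within 5 kb. The remaining peaks that overlap a gene (n = 1105), outside promoter windows and with no midpoint in these introns, were close to that, at 9401 bp and 31.2%. For 526 of the first-intron peaks (37.2%; 34.7 to 39.7) the nearest listed peak, at any distance, was the one at the host's own promoter. In hosts with a marked promoter the median gap was 6782 bp (6458 to 7443), and in hosts with an unmarked promoter 21453.5 bp (16609 to 26940). The difference from later introns varied with distance and with the state of the promoter. In marked genes at 10 to 20 kb from the TSS the medians were 8083 bp (7610 to 8891) in first and 8405.5 bp (7665 to 8999) in later introns. From 20 kb on in marked genes the first-intron medians were lower, at 10130 bp (9166 to 13286) against 13850.5 bp (12187 to 15200) at 20 to 50 kb, again with overlapping intervals. They were 9741 bp (7101 to 15283) against 14240 bp (12087 to 16349) at 50 to 100 kb, with overlapping intervals, and 11652 bp (6944 to 16543) against 18477 bp (16945 to 21797) over 100 kb. In unmarked genes the first-intron medians were the higher ones at 10 to 20 kb, 25588 bp (15387 to 37977) against 19212 bp (14667 to 25475), and also beyond 50 kb, with overlapping intervals.

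Most hosts held a single peak, but 668 of the 1415 peaks (47.2%) shared their intron with another. There were 766 genes with 1 peak, 166 with 2, 53 with 3 and 21 with 4. After Gm20388, the introns with the most peaks were those of Nhsl1, an actin regulator related to the Nance-Horan syndrome protein, and Nxn, which encodes the thioredoxin-like nucleoredoxin, with 9 each. In Nhsl1 (mm10, chromosome 10, first intron of 153642 bp) the midpoints lay at 5443, 10484, 15872, 44865, 53015, 70703, 101998, 112482 and 128125 bp from the TSS, so that the peaks ran along most of the intron. Their widths ran from 413 to 8403 bp. In Nxn (chromosome 11, 120109 bp) the 9 midpoints ran from 5937 to 110507 bp, with widths of 338 to 8069 bp. Nhsl1 had a marked promoter, whereas Nxn had no listed peak at any coding TSS.

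The receptor tyrosine phosphatase gene Ptprg held 7 of the peaks over 166782 bp, and the formin gene Fmnl2 and the mitochondrial calcium uniporter gene Mcu held 6 each. In Mcu they lay between 22374 and 67666 bp of a 125367 bp intron, and none lay farther in. Tspan5, Ninj2, Baz2b and Chn2, which encode a tetraspanin, an adhesion protein, a bromodomain protein and a Rac-directed GTPase activator, held 5 each. They are the 4 with the largest summed peak width among 8 hosts with 5 peaks. The 5 peaks of Ninj2 were all broad, from 3795 to 6556 bp, and those of Chn2 ran from 667 to 3643 bp. Apart from Gm20388 at 0.935, these 9 introns held between 3.75 and 7.49 of the peaks per 100 kb. Of these 10 hosts, all except Nxn had a marked promoter.

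**Figure D3:**
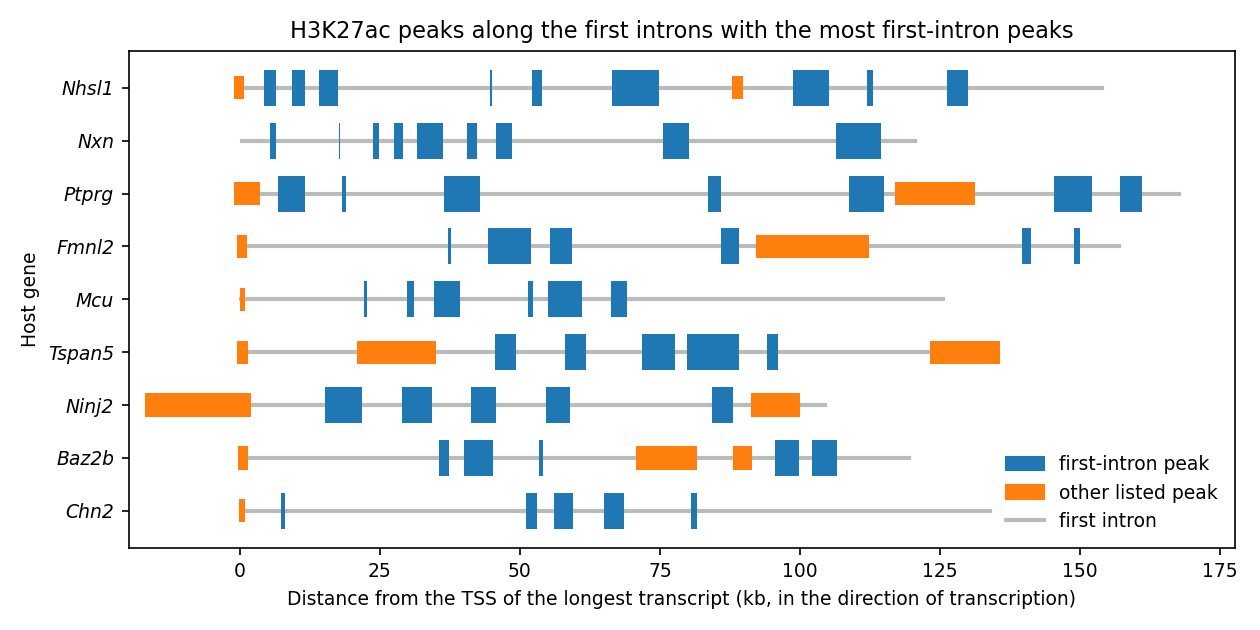
Listed peaks along the first introns of 9 hosts with 5 or more first-intron peaks, without Gm20388 and with ties at 5 peaks broken by summed peak width, by distance in kb from the TSS in the direction of transcription (horizontal axis); blue boxes are first-intron peaks, orange boxes are other listed peaks that overlap the intron, such as promoter peaks or peaks over the width limit, and grey lines are the introns. In Nhsl1 and Nxn, with 9 peaks each, the boxes are spread along the intron, and Nxn is the only one of the 9 without an orange box.

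Genes of the LIF, FGF and Wnt pathways, on which the culture medium acts, were among the hosts. Of 10 LIF and STAT3 genes with eligible introns 2 were hosts (20.0%; 5.67 to 51.0, against 7.12% of all eligible genes), both with marked promoters. The median first intron of these 10 genes was 23484.5 bp long and 9 of their promoters were marked. In Lifr the midpoints lay at 26873 and 43282 bp, with widths of 6822 and 1999 bp, and in Gab1, an adaptor of receptor signalling, at 21761 bp with a width of 4876 bp. Of 20 FGF and ERK genes 6 were hosts (30.0%; 14.5 to 51.9, against 7.12% of all eligible genes), all with marked promoters. Among them were Spred2, an inhibitor of the cascade, and the Ras activator Sos1 with 2 peaks each, and the kinase gene Map2k1 and the receptor gene Fgfr2 with 1 each. The peak in Map2k1 was 2914 bp wide and lay 11808 bp from the TSS, and that in Fgfr2 was 1694 bp wide and lay 34064 bp from it. The median first intron of this list was 21612.5 bp long and 19 of the 20 promoters were marked, and among all marked genes with introns of 20 to 50 kb the share of hosts was 26.3%.

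Of 15 Wnt genes 4 were hosts (26.7%; 10.9 to 52.0, against 7.12% of all eligible genes), all with marked promoters. The median first intron of the Wnt list was 16534 bp long and 13 of the 15 promoters were marked. Among all marked genes with introns of 10 to 20 kb the share of hosts was 13.2%. Gsk3b, the kinase inhibited by CT-99021, held 2 peaks at 21460 and 47248 bp, with widths of 695 and 1913 bp. Znrf3 held 1 at 32094 bp, Lrp5 1 at 17853 bp and Lrp6 1 at 10437 bp, with widths of 3543, 1894 and 1301 bp. Of 18 Nodal and BMP genes 1 was a host (5.56%; 0.988 to 25.8), Ski, with 4 peaks between 34295 and 58130 bp. The median first intron of that list was 25123.5 bp long.

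Of 13 naive pluripotency genes with eligible first introns 1 was a host (7.69%; 1.37 to 33.3, against 7.12% of all eligible genes). This was Esrrb, with peaks of 1704, 5716 and 4235 bp at 34529, 40255 and 73790 bp from the TSS of its longest transcript. That TSS was unmarked and another coding TSS of the gene was marked. The median first intron of this list was 4139 bp, and among all genes with first introns of 2 to 5 kb 0.401% were hosts. Of 9 formative and primed genes 1 was a host (11.1%; 1.99 to 43.5), the DNA methyltransferase gene Dnmt3a, with 1 peak of 802 bp. Among 13 acetyltransferase and deacetylase genes Kat2b held 2 peaks and Hdac2 held 1. None of 15 Polycomb genes was a host, with an upper limit of 20.4% that includes the 7.12% of all eligible genes, and 14 of them had a marked promoter.

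Of 50 neurotransmitter receptor genes, known mainly from neurons, 5 were hosts (10.0%; 4.35 to 21.4) and 4 had a marked promoter. The kainate receptor genes Grik3 and Grik4 were hosts with marked promoters, with 4 and 2 peaks, and Drd2, Chrna9 and Chrnb4 held 1 each and had unmarked promoters, although Chrna9 was marked at another coding TSS. The list taken by ribosomal protein symbols had 13 eligible genes, of which 6 were Rps6k genes, which encode kinases or kinase-like proteins. Rps6ka2, which belongs to them, held 3 peaks, and of the other 7 only Rps14 was a host. The lists were small, their intervals were wide, and their introns differed in length, and no list was tested against the other genes.

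In base composition the peaks resembled other distal peaks and not promoters. Their median GC content was 47.5% (47.2 to 47.7), against 47.5% (47.3 to 47.7) in later introns, 47.1% (46.9 to 47.2) in intergenic peaks and 53.9% (53.7 to 54.0) at promoters. The median lay below that of promoter peaks on 19 of 19 autosomes, above that of intergenic peaks on 15 and above that of later-intron peaks on 9. The difference from later introns was -0.0245 percentage points and changed sign with the sequence window and the placement of the peak. All classes were richer in GC than windows of 1000 bp tiled over eligible first introns outside peaks (median 42.5%) and the autosomes as a whole (41.9%).

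**Figure D4:**
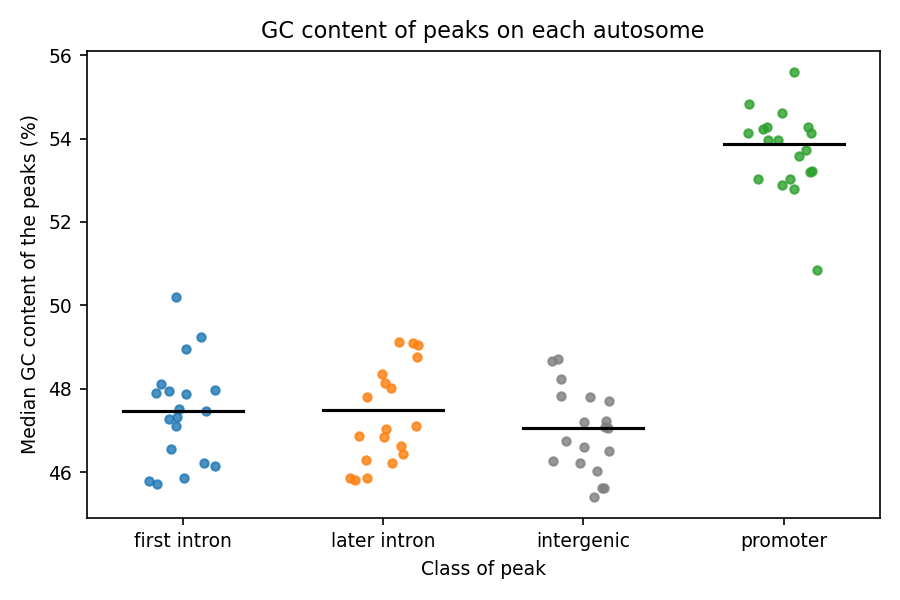
Median GC content of the peaks of each class in percent (vertical axis); each point is 1 of 19 autosomes, spread sideways for legibility, and the black line is the median over all peaks of the class. First-intron, later-intron and intergenic peaks overlap, with lines at 47.5, 47.5 and 47.1%, and promoter peaks lie higher, at 53.9%.

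CpG-rich sequence, which marks most mammalian promoters, was rare. A stretch of 500 bp with at least 55% GC and an observed over expected CpG ratio of at least 0.65 was present in 28 of the peaks (1.98%; 1.37 to 2.85), in 2.74% (2.25 to 3.34) of later-intron, 5.58% (5.00 to 6.22) of intergenic and 82.3% (81.5 to 83.0) of promoter peaks. The 28 included both peaks of Foxo6, 15584 and 3986 bp from the TSS, and single peaks in Basp1, Rere, Nrp2, Hoxc4, Wnt6, Foxp4 and Bcl6, named after their values were seen. Of the 28, 35.7% lay within 1 kb of a TSS of another transcript type, such as a processed transcript or an antisense RNA, against 9.52% of the 1387 peaks without such a stretch. Over all 1415 peaks, 142 (10.0%; 8.58 to 11.7) lay near such a TSS, fewer than the 16.3% (15.1 to 17.6) of later-intron peaks. In 40 cases it was a processed transcript of the host gene itself and in 23 an antisense RNA of another gene.

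The choice of isoform bears on what counts as distal. For 800 of the peaks (56.5%; 53.9 to 59.1) another coding TSS of the host lay nearer to the midpoint than the TSS of the longest transcript, outside the window of 1 kb that the rule keeps clear. Peaks within 5 kb of the TSS stood apart in some respects: the 89 of them had a median width of 1410 bp (1252 to 1651), a CpG-rich stretch in 8.99% (4.63 to 16.7) and a marked host promoter in 49.4% (39.3 to 59.6). Part of this is built in, because a wide peak centred so near the TSS touches the window of 1 kb and is not eligible. Peaks that the authors had merged with a promoter peak were not eligible either. From 5 to 10 kb (n = 254) the median width was 1989.5 bp (1865 to 2436) and the host promoter was marked for 79.9% (74.6 to 84.4). Repeats covered a median of 19.8% of a first-intron peak, against 19.3% in later introns, 25.4% in intergenic and 11.8% in promoter peaks.

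Of the 12 motifs searched, several were more frequent about the midpoints of first-intron peaks than in intron sequence outside peaks. The share of 1000 bp windows with a KLF match was 16.2% (14.4 to 18.2) in the peaks and 6.64% in 199193 windows of eligible first introns outside peaks, higher on 19 of 19 autosomes. For Esrrb the shares were 6.08% (4.95 to 7.45) and 2.56%, higher on 16 autosomes, and for STAT 3.53% (2.69 to 4.63) and 2.61%, higher on 13. Later-intron peaks had similar shares, 14.6% (13.5 to 15.8) for KLF, 5.42% (4.72 to 6.23) for Esrrb and 3.46% for STAT. At least 1 of the 5 motifs shown with the sequences was found in 31.9% (29.5 to 34.3) of first-intron peaks, 30.8% of later-intron peaks and 20.2% of windows. The Lrp5 and Lrp6 stretches above hold both the KLF and the Esrrb letters. The GC box GGGCGGGG (9.12 against 2.70%), the ETS motif CCGGAAG (6.22 against 2.70%) and the E-box CACGTG (15.1 against 10.4%) were also more frequent. GC box and ETS matches were nevertheless far less frequent than at promoter peaks, where they were found in 37.4% and 24.0%.

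Over all GC contents together, the motifs bound by OCT4 had shares in the peaks close to those of the windows. The octamer was found in 6.43% (5.27 to 7.83) of first-intron peaks and in 7.28% of the windows outside peaks, and the POU-SOX composite in 2.97% (2.20 to 3.99) and 2.66%. The composite was present in 4.53% (3.88 to 5.27) of later-intron and 5.54% (4.96 to 6.18) of intergenic peaks, and the share in first introns was above that in later introns on 5 of 19 autosomes. The peaks were richer in GC than the windows, so the shares were also compared within bins of GC content. Between 45 and 50% GC the octamer was found in 7.32% (5.40 to 9.85) of 533 first-intron peaks and 4.47% of windows. Between 50 and 55% GC it was found in 6.05% (3.99 to 9.07) of 347 peaks and 2.74% of windows. Below 45% GC the octamer was no more frequent in the peaks, and over 55% GC it was found in 0 of 96 peaks and 1.82% of windows. Between 40 and 45% GC the composite was found in 5.92% (3.90 to 8.87) of 355 peaks and 2.83% of windows. In the bin of 45 to 50% GC the composite was at 1.69% (0.891 to 3.18), against 2.30% of windows and 4.09% of later-intron peaks, and between 50 and 55% GC it was at 1.73% (0.795 to 3.72), against 1.71% of windows. KLF and Esrrb had higher shares than the windows in each bin, with 15.9% (13.1 to 19.3) against 9.04% and 5.82% (4.13 to 8.14) against 3.15% between 45 and 50% GC. Over 55% GC their intervals included the share of windows. The shares there were 21.9% (14.8 to 31.1) against 17.8% for KLF and 5.21% (2.24 to 11.6) against 2.26% for Esrrb. GC box matches were found in 9.76% (7.52 to 12.6) of the peaks and 4.12% of windows between 45 and 50% GC. Above 50% GC the GC box intervals also lay above the share of windows, and below 45% GC they included it. For ETS the shares between 45 and 50% GC were 4.88% (3.35 to 7.05) and 3.85%, and between 40 and 45% GC 3.10% (1.74 to 5.46) and 2.29%. In the other 3 bins the ETS intervals lay above the share of windows, as between 50 and 55% GC with 9.22% (6.61 to 12.7) against 6.04%. For the E-box the shares at 45 to 50% GC were 14.6% (11.9 to 17.9) and 13.8%, and between 50 and 55% GC 16.4% (12.9 to 20.7) and 15.8%. Over 55% GC the E-box was found in 24.0% (16.5 to 33.4) of the peaks and 14.3% of windows, and below 45% GC its share was also the higher one in the peaks. The STAT intervals included the share of windows in each of the 5 bins of GC content.

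Part of the matches lay in repeats. Counting only matches without a masked base, KLF was found in 162 of the peaks (11.4%; 9.89 to 13.2) against 4.11% of windows, and Esrrb in 40 (2.83%; 2.08 to 3.83) against 1.36%, so that the other 46 of the 86 peaks with an Esrrb match had it in repeat sequence only. The Esrrb match of the Lrp6 stretch is such a case. The TEAD motif ACATTCC was found in 15.3% of the peaks and 13.2% of windows. The AP-1 motif TGANTCA was found in 27.1 and 27.2%, and the GATA-factor motif AGATAAG in 12.0 and 14.0%. The GATA difference changed direction with GC content. Below 40% GC the shares were 29.8% (21.0 to 40.2) of 84 peaks and 15.9% of windows, and between 45 and 50% GC 9.19% (7.02 to 11.9) and 12.5%. The NRF1 motif GCGCATGCG was found in 4 peaks (0.283%), against 0.145% of windows. Repeats were examined after the motif shares had been seen. The authors kept peaks by their distance to sites of open chromatin, and the windows outside peaks passed no such filter, so that the comparison with windows is not between sequences chosen alike.

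**Figure D5:**
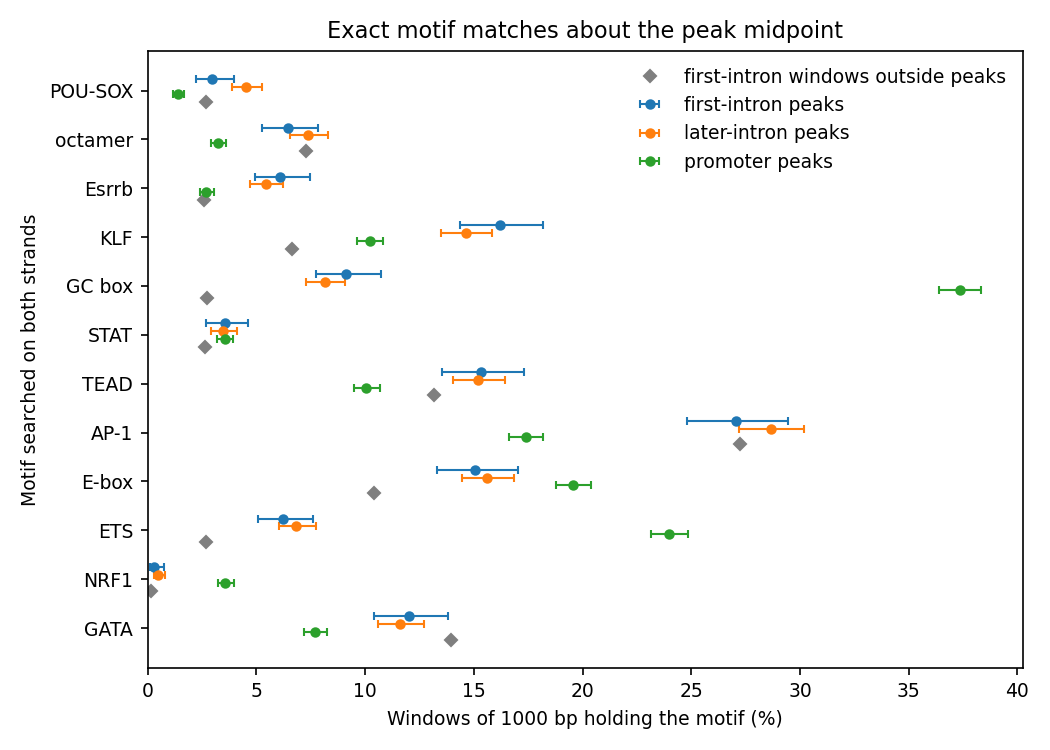
Share of 1000 bp windows with an exact match, in percent (horizontal axis), for each of 12 motifs (vertical axis); circles are windows about the midpoints of first-intron (blue), later-intron (orange) and promoter (green) peaks with 95% Wilson intervals, and grey diamonds are first-intron windows outside peaks. KLF at 16.2% against 6.64% and Esrrb at 6.08% against 2.56% lie to the right of the diamonds, the octamer at 6.43% against 7.28% does not, and the GC box and ETS motif are highest at promoters. The shares are not matched for GC content.

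By the state of the host promoter, GC content and KLF shares had overlapping intervals. In hosts with marked and unmarked promoters the median GC content was 47.4% (47.0 to 47.7) and 47.7% (47.1 to 48.5), and KLF matches were found in 16.7% (14.6 to 19.1) and 14.7% (11.4 to 18.8). Widths differed more, with medians of 2109 bp (1964 to 2296) and 1844.5 bp (1702 to 1951). The Esrrb motif, singled out of the 12 after the values were seen, was found in 76 of the 1055 peaks in marked hosts (7.20%; 5.79 to 8.92) and 10 of the 360 in unmarked hosts (2.78%; 1.52 to 5.04), with the higher share in marked hosts on 13 of 19 autosomes. In unmasked sequence the shares were 3.51% (2.55 to 4.80) and 0.833% (0.284 to 2.42). In later introns they were 5.40% (4.58 to 6.37) and 5.47% (4.22 to 7.05). Whether these shares differ beyond chance was not tested.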

How the data were processed

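H3K27ac ChIP-seq was made from 6 mESC samples. According to the study's methods, the authors trimmed reads with Cutadapt, aligned them with bwa to mm10 joined to the human genome T2T-CHM13, removed duplicates with Picard 2.9.1, filtered with samtools 1.4, called peaks with LanceOtron, merged peaks within 2 kb and filtered them by height, enrichment and distance to ATAC-seq summits. The deposited file holds positions of control peaks pooled over both replicates, in bp on mm10, with starts taken as counted from 0 and no height, score or count. The read totals that the study gives for its libraries were not used here.

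Peaks were placed with GENCODE M21 (GRCm38), an older release than the one the study names, and the longest transcript was the protein-coding one of greatest genomic span. Eligible sequence excluded TSS windows and assembly gaps. Where first introns of several genes held a midpoint, the gene with the nearest TSS was the host for distances. Shares have 95% Wilson, densities exact Poisson and medians order-statistic intervals, and density ratios a log-normal one. Motifs were exact matches on both strands in 1000 bp about the midpoint. Repeats were the lower-case bases of the RefSeq sequence. Placement, intervals and motif search were tested on simulated data. Named genes were the 10 hosts with the most peaks (ties by summed peak width), up to 4 hosts per list with the most peaks (extended for FGF and ERK and for neurotransmitter receptors after their values were seen), the hosts at both ends of the width range, and the printed stretches, which came from naive pluripotency and then signalling genes by number of motif kinds, none from chromosome 18. Some genes that the rule picks are not reported here. The 10 lists were naive pluripotency, formative and primed, LIF and STAT3, FGF and ERK, Wnt, Nodal and BMP, acetyltransferases and deacetylases, Polycomb, neurotransmitter receptors and ribosomal proteins. The peaks, lists and comparisons were chosen with earlier results of these data known. The work used Python 3.11.15 with scipy 1.17.1, pandas 2.3.3, numpy 2.4.6 and, for plots, matplotlib 3.10.9.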

Additional observations from a re-analysis of the deposited data

How the results depend on the processing

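Of 116 values under 13 alternatives, 102 kept their direction and stayed within the interval of the main value or, for counts, within 1.5 times it. The share of autosomal peaks, 6.28%, was 5.93% with the longest spliced transcript, 5.88% with the whole peak inside the intron and 6.71% with no upper width limit. With the whole peak inside, the density ratio of first over later introns was 1.62, with the eligible sequence left unchanged and a larger share of peaks lost in later introns. The GC difference from later introns, -0.0245 percentage points, became 0.438 with the whole peak inside, 0.0902 with peaks of at least 1 kb and 0.150 in 1000 bp about the midpoint, so it has no stable sign. With peaks of at least 1 kb, the stand-in for a stricter threshold since the list has no score, the median width was 2446 bp, the median GC content 47.1% and the share sharing an intron 43.8%. The median width was 2159.5 bp without the upper limit, and the median distance 14710 bp with 1 peak per intron. The POU-SOX share was 0.848% in 300 bp and 6.996% in the whole peak, windows that hold fewer and more bases. An alternative chosen after seeing the data, a peak at any coding TSS, gave 77.3% of hosts as marked in place of 71.9%, and leaving out genes with first introns over 1 Mb, also chosen after seeing the data, left 13 of 13 values unmoved. Leaving out a replicate was not possible with a pooled list. No paired analysis was possible because the list pools both control replicates and no test was run.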

Other observations

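The deposited list is not sorted by chromosome or position, and the order of its lines has no stated meaning. First-intron peaks stood at a median line of 14377, later-intron peaks at 14667 and intergenic peaks at 14608, whereas promoter peaks stood at 9445.5. Among first-intron peaks, the 230 that were 5 to 10 kb wide stood at a median line of 7372.5 and the 206 narrower than 1 kb at 20529. The wide ones lay near a TSS of another transcript type in 17.8% of cases and the narrow ones in 8.74%, and their host promoters were marked in 80.4% (74.8 to 85.0) and 65.5% (58.8 to 71.7). In the first intron of Gm20388, 46 further listed peaks overlapped the intron beside its 41 first-intron peaks.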
